A study of Mus musculus with 23 samples.

Results

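The replication-dependent histone genes are taken here as every row of the deposited expression table whose symbol starts with Hist, a digit from 1 to 4 and the letter h. The rule found 68 of the 22784 genes in the table. They comprised 6 linker histone H1 genes, 18 H2A, 19 H2B, 12 H3 and 13 H4 genes. By the digit in the symbol, 54 belong to the Hist1 cluster on chromosome 13, 10 to Hist2 on chromosome 3, 3 to Hist3 on chromosome 11 and 1 to Hist4 on chromosome 6. The symbols also take in genes that are not typical of S phase, among them the testis genes Hist1h1t, Hist1h2aa and Hist1h2ba and the annotated pseudogene Hist3h2bb-ps.

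The core histones H2A, H2B, H3 and H4 form the nucleosome around which DNA is wound, and the linker histone H1 binds the DNA that enters and leaves it. Most of their genes lack introns, lie in clusters and are transcribed when DNA is copied. Their messages usually end just past a stem-loop that the protein Slbp binds, in place of a poly(A) tail, and are destroyed when replication stops. A minority can be cleaved further downstream and given a tail. Because the libraries were made from poly(A)+ RNA, the values below are those of tailed histone messages only and say nothing of the messages that end at the stem-loop.

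The study measured mouse cells on 2 routes to the egg, 1 in culture and 1 in the animal, in 23 samples and 8 groups. All 5 culture groups carry the strain label C57BL/6 X 129. They were female embryonic stem (ES) cells kept in 2i and LIF, primordial germ cell-like cells (PGCLCs) induced for 6 days from female epiblast-like cells, PGCLCs reaggregated for 3 days with somatic cells of the female E12.5 gonad, oocytes from secondary follicles after 21 days of that culture, and eggs arrested at metaphase of the second meiotic division (MII) after 11 days of follicle culture and 16 h of maturation. All 3 animal groups carry the strain label B6D2F1. They were E12.5 primordial germ cells (PGCs), secondary follicle oocytes of ovaries at day 8 after birth, both sorted by the BVSC transgenes, and MII eggs of females aged 8 weeks. The PGCLCs at day 6 had 2 samples and every other group had 3. Strain and route cannot be told apart.

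Values are FPKM, sequenced fragments scaled to transcript length and to library size, and the table holds 1 value per gene and group. There is thus no replicate spread, standard deviation or test for any value here, and every difference describes the pooled libraries of 2 groups. The depth of each group is unknown. The input was 10000 to 13200 ES cells, 10000 PGCLCs at day 6, 5300 to 15000 reaggregated PGCLCs, 337 to 812 secondary follicle oocytes and 99 to 134 MII oocytes. Differences are on the log2(FPKM + 1) scale, which understates the change of low genes, and were called where they reached 2-fold (1 on that scale) among the 14242 genes with at least 1 FPKM in at least 1 group. In bulk samples, fewer cells of a type and less RNA per cell cannot be told apart.

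The cell labels were checked against marker genes. All 6 ES cell markers reached 10 FPKM in ES cells, all 6 germ cell markers did so in both PGCLC groups and in E12.5 PGCs, and all 10 oocyte markers did so in both secondary follicle groups and 9 of 10 in both MII groups. However, 5 of the 6 ES cell markers also reached 10 FPKM in both PGCLC groups and in E12.5 PGCs. That list thus does not separate ES cells from germ cells at this threshold. Of the 6 germ cell markers, 5 reached it in culture MII oocytes and 4 in animal ones. The 12 granulosa and cumulus cell markers summed to 75.3 FPKM in culture MII oocytes and 61.0 FPKM in animal MII oocytes, against 7.54 and 7.88 FPKM in the corresponding secondary follicle groups. Of these 12, 10 were higher at MII in culture and 7 in the animal, among them Cyp19a1 at 27.1 and 42.2 FPKM, Gja1 at 9.72 and 2.94 FPKM and the cumulus genes Tnfaip6 at 5.91 and 4.18 FPKM and Ptgs2 at 4.77 and 3.45 FPKM, while Fshr was listed at 0 in both MII groups. The 8 markers of gonadal stroma summed to 94.3 and 67.6 FPKM at MII, against 17.9 and 11.9 FPKM, with 76.7 and 64.8 FPKM from Gata4. Of these 8, 7 were higher at MII in culture and 5 in the animal, Vim at 14.9 and 2.24 FPKM among them, while Col1a2 was listed at 0 in both. The 7 markers of blood and endothelium summed to 78.6 and 120.0 FPKM, against 15.2 and 9.64 FPKM, with 78.1 and 117 FPKM from Pecam1. Of these 7, 4 were higher at MII in culture and 2 in the animal, and Ptprc, Hba-a1 and Hbb-y were listed at 0 in both MII groups. The part of these lists in the histone differences at MII was not tested. FPKM summed over all genes ranged from 268720 in reaggregated PGCLCs to 975407 in animal MII oocytes.

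The 3' ends of the genes are shown first, since a tail depends on where a message ends. In the GENCODE M21 annotation of GRCm38, the build called mm10, the annotated transcripts of 54 of the 68 genes run past the stop codon, and 46 of the 68 hold the histone stem-loop there, in 8 different spellings of 16 bases. Among 58725 other protein-coding transcripts, 0.0664% hold such a stem-loop anywhere. Below, the stem is in capitals and the loop in lower case, 5' to 3', for 3 genes that were high in oocytes (Hist1h1c, Hist3h2ba, Hist2h4) and 3 that were high in germ cells (Hist1h3c, Hist1h2ag, Hist1h4d).
Hist1h1c: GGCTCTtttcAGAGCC
Hist3h2ba: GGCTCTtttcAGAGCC
Hist2h4: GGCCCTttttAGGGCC
Hist1h3c: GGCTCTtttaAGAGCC
Hist1h2ag: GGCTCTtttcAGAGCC
Hist1h4d: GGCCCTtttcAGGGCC
The 6 loops lie at chr13:23739512-23739527 (plus strand), chr11:58949349-58949364 (plus), chr3:96262939-96262954 (minus), chr13:23745047-23745062 (minus), chr13:22042483-22042498 (minus) and chr13:23581950-23581965 (plus), all in the 3' UTR. Hist1h1c, Hist3h2ba and Hist1h2ag share 1 spelling, so the letters of the loop do not separate the oocyte genes from the germ cell genes.

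The annotated transcript past the loop varied widely. GENCODE continues 840 bases past the loop of Hist1h1c, 1257 past that of Hist2h4, 169 past that of Hist3h2ba and 1643 past that of Hist3h2a, but only 74 past that of Hist1h3c and 23 past that of Hist1h2ag. Hist1h4d is an exception among the germ cell genes, with 770 bases. Long extensions were not limited to genes that were high in oocytes: GENCODE gives 4884 bases for Hist1h1d, 2010 for Hist1h2ac, 1214 for Hist1h2bh and 1162 for Hist2h3c1, named after their values were seen, and none of these 4 exceeded 1.26 FPKM in any group. The hexamer AATAAA, the main signal for cleavage and tailing, occurs in the last 40 bases of the annotated transcript of Hist1h1c, Hist2h4, Hist3h2ba, Hist3h2a and Hist4h4, and in 14 of the 68 genes, against 39.3% of other protein-coding transcripts. Of those 14 genes, 7 reached 1 FPKM in some group and 3 reached 10. Of the 54 genes without the hexamer there, 25 reached 1 FPKM and 2 reached 10. These 54 include 14 genes with no annotated bases past a stop codon, the pseudogene Hist3h2bb-ps among them, where no 3' UTR could be searched. The counts therefore cannot relate the hexamer to the level. The 2 genes that reached 10 FPKM without it were Hist1h2aa, whose annotated transcript stops at the stop codon, and Hist1h2bc. The annotated transcript of Hist1h2bc is spliced from 2 exons and holds no stem-loop. RefSeq draws the same genes differently: of the 46 genes with a loop, 43 end within 10 bases of it in RefSeq and 2 do so in GENCODE, with medians of 5 and 91 bases past the loop, and the 7 genes whose extensions are given first end 4 to 8 bases past it in RefSeq. No source used here gives the gene models of the authors, and FPKM depends on their length.

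The starts of the genes were compared next. RefSeq promoter windows on GRCm38.p6, from 250 bases before to 50 after the start, matched 62 of the 68 genes by symbol or synonym and by position, in 63 windows. There was no entry for Hist1h2bc, Hist2h4, Hist1h3a, Hist1h3f, Hist2h2be and Hist3h2bb-ps. The windows of 3 oocyte genes and 1 germ cell gene are printed 5' to 3' on the strand of the gene, with the octamer ATTTGCAT, the CCAAT box, the TATA box spelled as TATAAA and the H1 element AAACACA, on either strand, in capitals.
Hist1h2aa (chr13:23934187-23934486, plus strand): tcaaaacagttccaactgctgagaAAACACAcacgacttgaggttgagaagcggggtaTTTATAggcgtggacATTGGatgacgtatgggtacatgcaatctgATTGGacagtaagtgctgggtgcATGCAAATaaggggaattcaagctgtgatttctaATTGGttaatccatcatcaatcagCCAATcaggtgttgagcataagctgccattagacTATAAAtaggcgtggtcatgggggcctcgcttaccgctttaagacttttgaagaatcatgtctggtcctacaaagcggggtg
Hist1h1c (chr13:23738557-23738856, plus strand): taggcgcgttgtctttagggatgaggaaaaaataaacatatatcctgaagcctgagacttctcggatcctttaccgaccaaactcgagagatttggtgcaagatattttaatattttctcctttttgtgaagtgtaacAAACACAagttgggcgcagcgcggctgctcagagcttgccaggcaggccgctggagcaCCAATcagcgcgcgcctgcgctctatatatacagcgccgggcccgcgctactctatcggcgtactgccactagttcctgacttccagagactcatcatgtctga
Hist3h2ba (chr11:58948661-58948960, plus strand): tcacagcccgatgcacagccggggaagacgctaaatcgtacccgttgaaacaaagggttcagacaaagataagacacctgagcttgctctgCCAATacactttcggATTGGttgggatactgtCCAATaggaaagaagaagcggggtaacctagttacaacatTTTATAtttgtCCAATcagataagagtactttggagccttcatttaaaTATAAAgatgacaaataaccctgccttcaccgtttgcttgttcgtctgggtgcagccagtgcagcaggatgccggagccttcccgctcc
Hist1h3c (chr13:23745472-23745771, minus strand): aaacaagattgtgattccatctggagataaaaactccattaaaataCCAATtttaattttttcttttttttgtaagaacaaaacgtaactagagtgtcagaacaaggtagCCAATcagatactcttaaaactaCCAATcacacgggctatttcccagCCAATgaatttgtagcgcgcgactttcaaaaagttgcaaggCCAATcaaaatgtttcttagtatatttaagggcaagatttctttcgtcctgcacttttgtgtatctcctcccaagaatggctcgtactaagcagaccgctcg
None of the 4 motifs contains another, and a match is a description of the letters only. The octamer ATTTGCAT occurred in 7 of 18 H2A windows and 7 of 17 H2B windows, in no H1, H3 or H4 window, and in 1.70% of 32788 other RefSeq windows. AAACACA was present in 5 of 6 H1 windows, against 7.17% of other windows. CCAAT was in 54 of the 63 windows, against 37.3%, and the 9 without it were all H4. TATAAA was in 35 of 63, against 13.5%. Windows of neighbouring genes overlap, because 14 pairs of the genes lie head to head within 1000 bases. The window of Hist1h2aa covers most of the 305 bases between it and Hist1h2ba, which is read the other way from the same stretch. All 4 motifs are found in it, while the windows of Hist1h1c and Hist3h2ba hold no octamer, and of the 4 motifs that of Hist1h3c holds CCAAT alone.

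Tailed histone messages were low. Of the 68 genes, 7 were listed at 0 in all 8 groups, 29 more stayed below 1 FPKM, 27 peaked between 1 and 10 FPKM and 5 reached 10. Those 5, Hist1h1c, Hist1h2aa, Hist1h2bc, Hist2h4 and Hist3h2ba, are 7.35% of the set, whereas 41.6% of all genes reached 10 FPKM in some group. The filter of 1 FPKM left 32 of the 68 genes (4 H1, 7 H2A, 9 H2B, 5 H3 and 7 H4), just past it Hist1h2bm at 1.01 FPKM and just short of it Hist1h4f at 0.877 FPKM, both named for that position after their values were seen. A gene that passed only through the group where it is high had to differ, so counts over these 32 are descriptions.

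**Figure D1:**
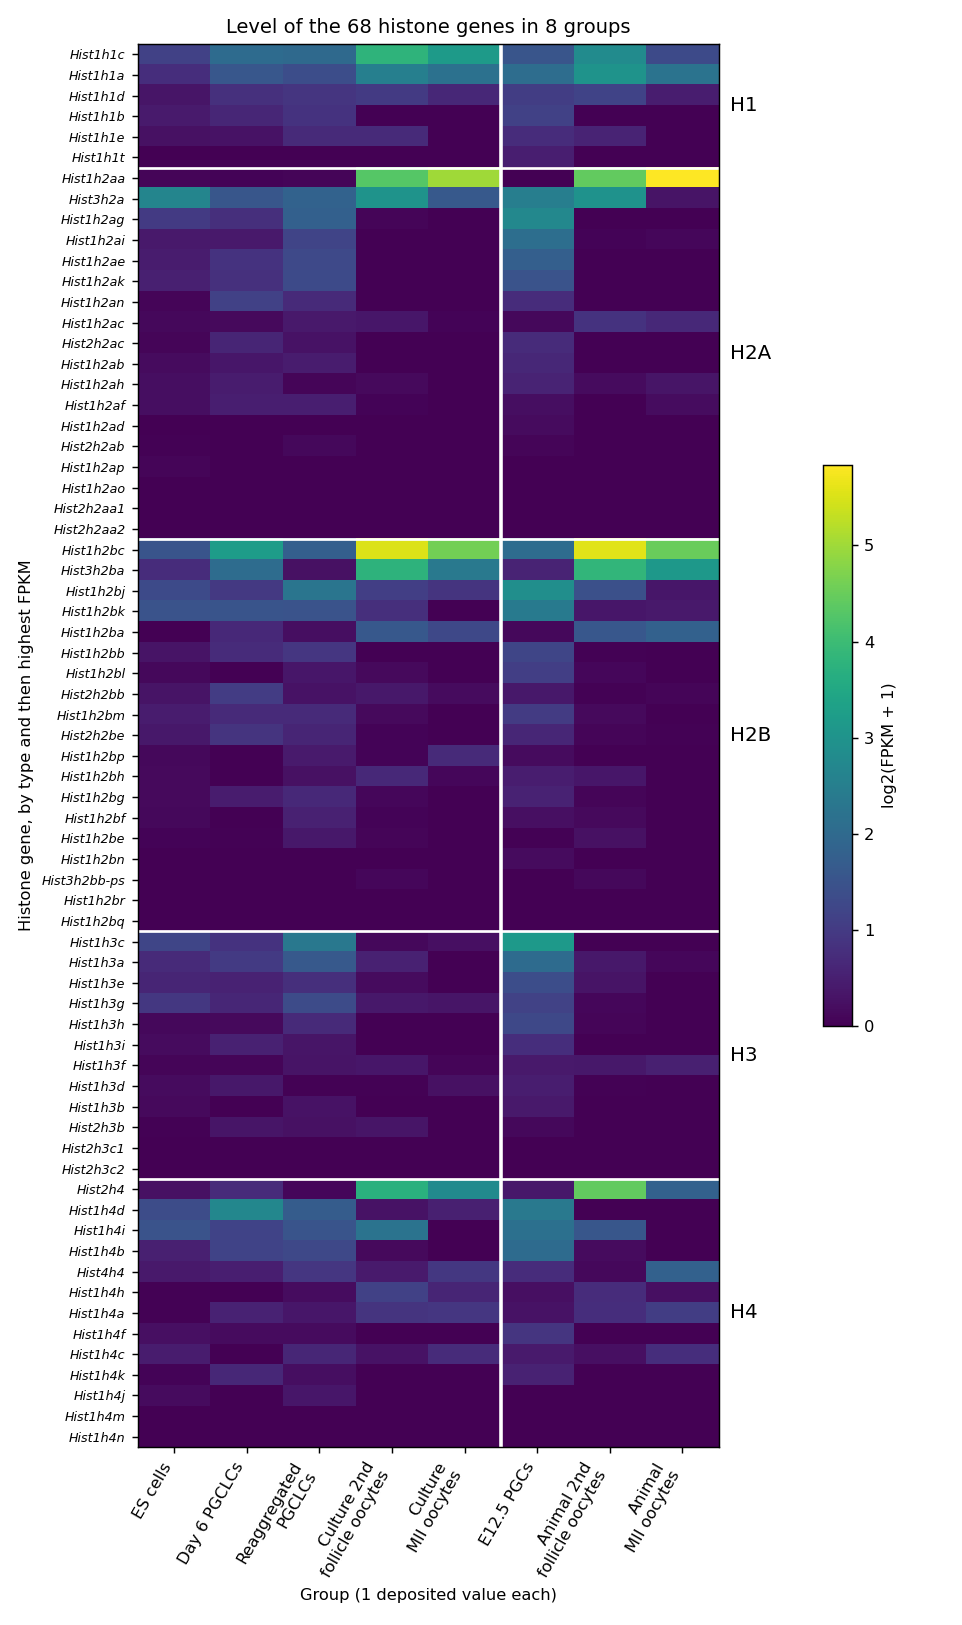
Each row is 1 of the 68 histone genes and each column 1 group, coloured by log2(FPKM + 1), with H1, H2A, H2B, H3 and H4 from top to bottom and the white vertical line between culture and animal groups. A few bright rows, such as Hist1h2bc at 44.8 FPKM in culture secondary follicle oocytes and 47.0 FPKM in animal ones, stand among rows that are dark in oocytes and faintly lit in germ cells.

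The sum over the 68 genes was largest in secondary follicle oocytes, and different genes made it up in germ cells and in oocytes. It was 27.4 FPKM in ES cells, 46.7 in PGCLCs at day 6, 48.9 in reaggregated PGCLCs, 128 in culture secondary follicle oocytes and 86.0 in culture MII oocytes. In the animal it was 79.8 FPKM in E12.5 PGCs, 134 in secondary follicle oocytes and 103 in MII oocytes. The place of MII oocytes depended on the scaling. With each group scaled to the same total, the sums were 79.4 FPKM in reaggregated PGCLCs, 159.8 in culture secondary follicle oocytes and 60.9 in culture MII oocytes, and 125, 167 and 46.0 FPKM in the animal, so that MII oocytes were below the germ cells of their route. The 5 genes that reached 10 FPKM gave 7.33% of the sum in E12.5 PGCs and 11.7% in reaggregated PGCLCs, but 80.3% and 78.7% in the secondary follicle oocytes of the same routes and 86.9% and 84.5% at MII; they were chosen by their peak, so the rise of their share describes that choice in part. The other 63 genes summed to 74.0 FPKM in E12.5 PGCs and 26.4 in animal secondary follicle oocytes, and to 43.2 and 27.3 FPKM at the same steps in culture. Of the 68 genes, 27 were highest in E12.5 PGCs, 15 of these among the 32 that passed the filter. The share of all genes highest there was not computed, so this count is a description only. The number listed at 0 went from 12 in E12.5 PGCs to 31 in animal secondary follicle oocytes and 45 at MII, and from 14 to 28 and 45 in culture. Over all 22784 genes the number listed at 0 was 5517, 5322 and 7963 at these stages in the animal and 5498, 5154 and 7069 in culture, so it was larger at MII across the table.

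**Figure D2:**
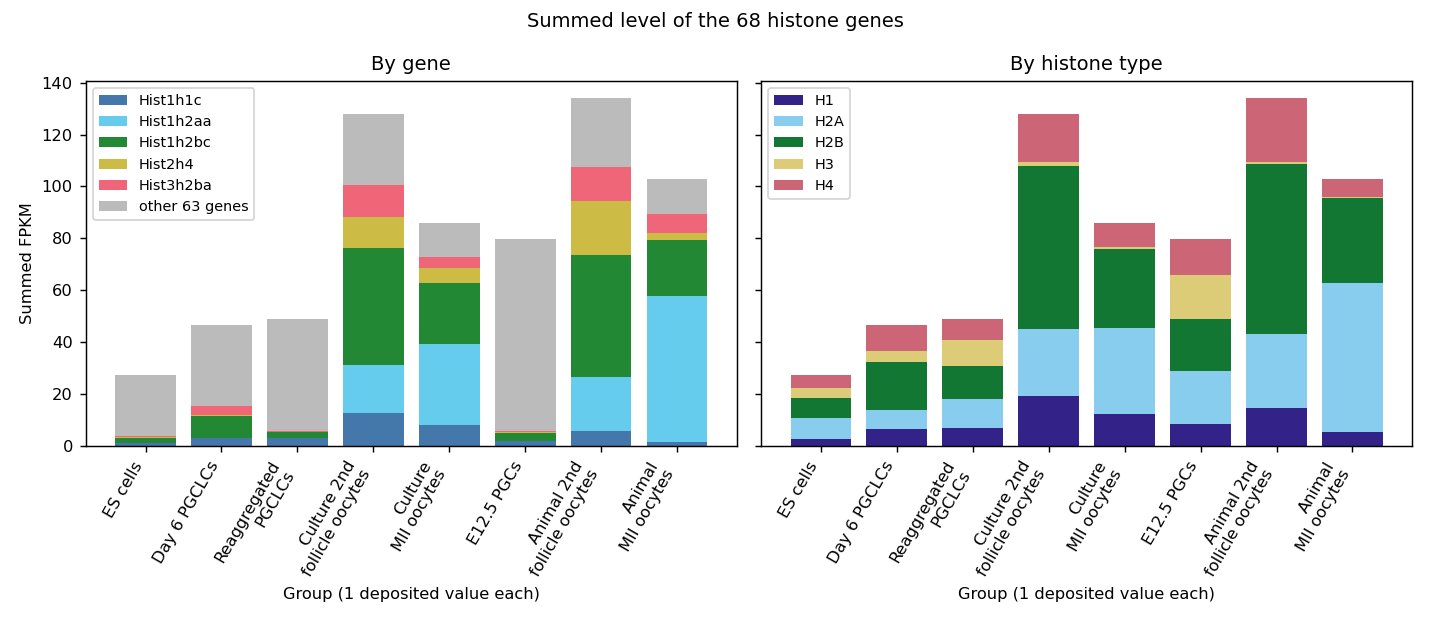
Stacked bars give summed FPKM of the 68 histone genes in each group, split by gene on the left and by histone type on the right. The grey part, the other 63 genes, is largest in E12.5 PGCs at 74.0 FPKM, and the H3 part nearly disappears in all 4 oocyte groups.

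Among the linker histones, Hist1h1c, which encodes the somatic subtype H1.2, reached the highest level of its type. It stood at 1.18 FPKM in ES cells, 3.09 in PGCLCs at day 6, 3.01 in reaggregated PGCLCs, 12.8 in culture secondary follicle oocytes and 8.09 in culture MII oocytes, and at 1.90 in E12.5 PGCs, 5.99 in animal secondary follicle oocytes and 1.49 in animal MII oocytes. It was thus higher in both culture oocyte groups than in their animal counterparts. Hist1h1a, the gene of H1.1, gave 0.691, 1.98, 1.60, 4.73 and 3.52 FPKM along the culture route and 3.28, 7.04 and 3.64 FPKM along the animal route, above Hist1h1c in all 3 animal groups. The testis linker histone gene Hist1h1t was listed at 0 in 7 groups and at 0.407 FPKM in E12.5 PGCs. H1 genes summed to 8.55 FPKM in E12.5 PGCs and 14.8 in animal secondary follicle oocytes.

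Of the H2A genes, Hist1h2aa was near 0 outside oocytes. This gene encodes the testis variant TH2A and lies at chr13:23934462-23934851 on the plus strand, without introns. It was listed at 0.0539 FPKM in ES cells, 0.0391 in PGCLCs at day 6, 0.0490 in reaggregated PGCLCs and was listed at 0 in E12.5 PGCs. It was at 18.6 FPKM in culture secondary follicle oocytes, 31.4 in culture MII oocytes, 20.7 in animal secondary follicle oocytes and 56.2 in animal MII oocytes. All 4 oocyte groups were above all 4 others, and it was the highest of the 68 genes in both MII groups. GENCODE places the gene Gm44344 on the opposite strand over it, and no source used here says whether the counting used strand.

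Other H2A genes took different courses, although Hist3h2a was also higher in secondary follicle oocytes than in the germ cells of each route. Hist1h2ag was at 1.00, 0.724, 2.45, 0.0585 and 0 FPKM along the culture route and at 5.57, 0 and 0 FPKM along the animal route. Hist3h2a, a gene outside the Hist1 cluster, was the highest of the 68 in ES cells at 5.35 FPKM and stood at 1.96, 2.54, 7.02 and 2.08 FPKM in the later culture groups and at 4.60, 6.89 and 0.246 FPKM in E12.5 PGCs, animal secondary follicle oocytes and animal MII oocytes. Trim17 overlaps it on the same strand and did not exceed 0.387 FPKM in any group. In animal secondary follicle oocytes 13 of the 18 H2A genes were listed at 0.

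H2B genes gave close to 50% of the summed level in secondary follicle oocytes, 49.0% in culture and 48.7% in the animal. Hist1h2bc, at chr13:23684199-23692908 on the plus strand, supplied most of it. It was at 1.88 FPKM in ES cells, 8.29 in PGCLCs at day 6, 2.39 in reaggregated PGCLCs, 44.8 in culture secondary follicle oocytes and 23.2 in culture MII oocytes. In the animal it was at 3.16, 47.0 and 21.8 FPKM. Its head-to-head neighbour Hist1h2ac, 250 bases away and named here for that position after its values were seen, did not exceed 0.815 FPKM in any group. Hist3h2ba followed the same course at a lower level, with 0.670, 3.19, 0.190, 12.6 and 4.10 FPKM in culture and 0.491, 13.3 and 7.59 FPKM in the animal. Hist1h2ba, the gene of testis variant TH2B and the partner of Hist1h2aa, was also higher in oocytes than in the other groups, at 2.04, 1.39, 2.01 and 2.54 FPKM in culture secondary follicle, culture MII, animal secondary follicle and animal MII oocytes, with 0.587 FPKM as the highest of the other 4. In all 4 oocyte groups it was far below its partner Hist1h2aa on the FPKM scale, which is per length.

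Hist1h2bj showed the course of the germ cell genes, with 1.49, 0.973, 3.84, 1.12 and 0.848 FPKM in culture and 6.34, 1.70 and 0.270 FPKM in the animal. Hist1h2bk stood at 1.80, 1.88, 1.83, 0.724 and 0 FPKM in culture and 4.23, 0.279 and 0.316 FPKM in the animal. Both were highest in E12.5 PGCs.

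H3 genes were the type with the least tailed message in oocytes. They summed to 3.93 FPKM in ES cells, 3.96 in PGCLCs at day 6, 9.92 in reaggregated PGCLCs, 1.53 in culture secondary follicle oocytes and 0.679 in culture MII oocytes, and to 17.1, 0.991 and 0.506 FPKM in E12.5 PGCs, animal secondary follicle oocytes and animal MII oocytes. That was 21.4% of the histone sum in E12.5 PGCs and 0.740% in animal secondary follicle oocytes. Hist1h3c, which encodes a replication-dependent H3, led this type: 1.34, 0.806, 4.05, 0.0894 and 0.177 FPKM in culture and 7.94, 0 and 0 FPKM in the animal. No H3 gene reached 1 FPKM in any oocyte group.

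Among H4 genes, Hist2h4 reached the highest level, in secondary follicle oocytes. At chr3:96261682-96263311 on the minus strand, it gave 0.197, 0.637, 0.0679, 12.0 and 5.88 FPKM in culture and 0.300, 20.6 and 2.49 FPKM in the animal. Hist1h4a and Hist1h4h, named after their values were seen, were also higher in every oocyte group than in any other group. They peaked at only 1.07 and 1.20 FPKM. Hist1h4d was highest in PGCLCs at day 6, at 5.51 FPKM, and stood at 1.54 FPKM in ES cells, 2.26 in reaggregated PGCLCs, 4.11 in E12.5 PGCs, 0.211 and 0.433 in culture secondary follicle and MII oocytes and 0 in both animal oocyte groups. Hist4h4, the lone gene of its cluster, was below 1 FPKM in every group other than animal MII oocytes, where it was at 2.50 FPKM. Hist1h4i was at 1.84, 1.26, 1.87, 3.70 and 0 FPKM in culture and 3.45, 1.96 and 0 FPKM in the animal, so it was listed at 0 in both MII groups.

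**Figure D3:**
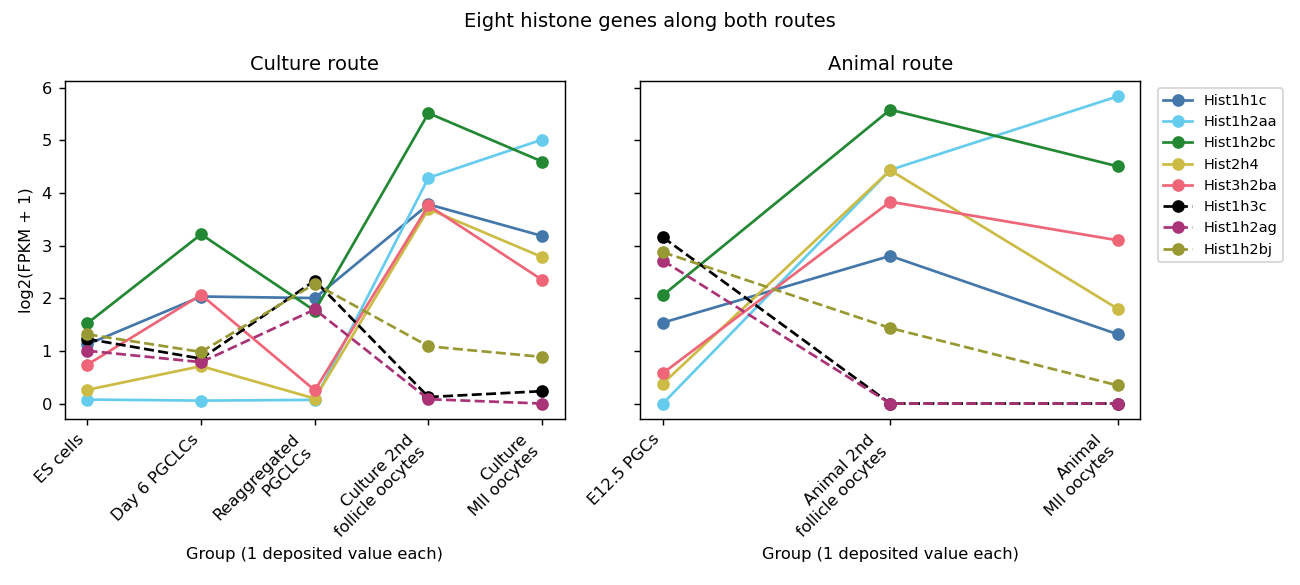
log2(FPKM + 1) of 8 histone genes in the order of the culture route on the left and the animal route on the right. Solid lines are the 5 genes that reached 10 FPKM and dashed lines are 3 genes that led in E12.5 PGCs; the dashed lines go down where the solid lines go up, between germ cells and secondary follicle oocytes.

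The widest differences lay between germ cells and secondary follicle oocytes. In culture, 8 of the 32 genes were at least 2-fold higher in the oocytes and 9 at least 2-fold lower, where 25.2% and 26.4% of all tested genes were higher and lower; both counts are near that background. The median difference was -0.57 over the 32 genes and -0.09 over all tested genes. In the animal, 6 were higher and 15 lower, against 24.3% and 25.9% of all tested genes, with medians of -0.92 and -0.09. Among the 15, Hist1h1b, Hist1h2bb, Hist1h3e and Hist1h3h, named after their values were seen, passed the filter only through E12.5 PGCs. The filter thus favoured the lower direction for them, in the count and in the median. Scaling each group to the same total moved the median of all tested genes to -0.38 on the culture route and -0.34 on the animal route. It changed the split of all calls in culture from 3594 higher and 3755 lower to 3138 and 4982. By type, all 5 tested H3 genes were at least 2-fold lower in animal oocytes and 2 of the 5 in culture oocytes. None of the 5 reached 1 FPKM in an oocyte group, so they passed the filter only through other groups. Of 7 H2A genes 4 were lower on each route, and 2 were higher in culture and 1 in the animal. Of 9 H2B genes 3 were higher and 3 lower in the animal, with a median of -0.85. The 4 H1 genes had 1 higher and 1 lower there, and the 7 H4 genes 1 higher and 2 lower. In culture the counts higher and lower were 3 and 1 for H2B, 2 and 0 for H1 and 1 and 2 for H4.

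Overlap between the routes among histone genes called higher was near that over all tested genes. All 6 of the animal route (Hist1h1c, Hist1h2aa, Hist1h2ba, Hist1h2bc, Hist2h4 and Hist3h2ba) were among the 8 of culture, which is 100% of the animal list and 75% of the culture list. The other 2 of culture were Hist1h1a and Hist3h2a, with differences of 1.14 and 1.18 in culture and 0.91 and 0.49 in the animal. Among all tested genes called higher the corresponding shares were 88.7% and 85.6%. Hist1h2aa, Hist1h2ba and Hist2h4 passed the filter only through oocyte groups, so the filter favoured this direction for them. For the genes called lower, the 9 of culture were all among the 15 of the animal, 60% of that list, beside 83.6% of the culture list and 85.2% of the animal list over all tested genes. Hist1h1b, Hist1h2bb, Hist1h3e and Hist1h3h, called lower in the animal alone, passed the filter only through E12.5 PGCs. The longer animal list therefore describes the filter in part. No histone gene was called in opposite directions.

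On the log2 scale, Hist1h2aa was 4.22 higher in culture oocytes than in reaggregated PGCLCs and 4.44 higher in animal oocytes than in E12.5 PGCs. The differences for Hist1h2bc were 3.76 and 3.53, for Hist2h4 3.60 and 4.05, for Hist3h2ba 3.51 and 3.26, and for Hist1h1c 1.78 and 1.27. In the other direction Hist1h3c differed by -2.21 and -3.16, Hist1h2ag by -1.71 and -2.72, Hist1h4d by -1.43 and -2.35 and Hist1h2bj by -1.19 and -1.44. Each of these 4 was closer to 0 in culture, where the germ cell level was lower to begin with. With 5 FPKM added before the logarithm in place of 1, the 5 genes Hist1h1c, Hist1h2aa, Hist1h2bc, Hist2h4 and Hist3h2ba were called higher in culture and none lower, and in the animal 4 were called higher and 2 lower.

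**Figure D4:**
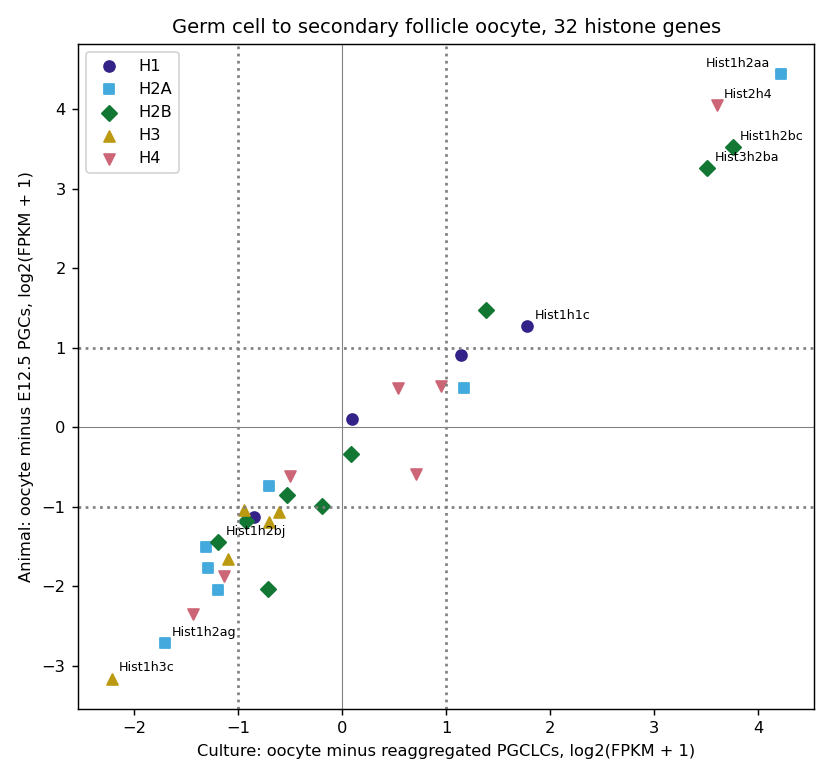
Each point is 1 of the 32 tested histone genes, with the log2(FPKM + 1) difference from germ cell to secondary follicle oocyte in culture on the x axis and in the animal on the y axis; dotted lines mark 2-fold. Hist1h2aa, Hist2h4, Hist1h2bc and Hist3h2ba stand apart at the upper right, each above 3 on both axes, and Hist1h3c is at the lower left.

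From secondary follicle to MII, fewer histone genes than background were called. In culture no gene was at least 2-fold higher and 3 were lower (Hist1h4i, Hist3h2a and Hist3h2ba), against 23.9% and 28.6% of all tested genes. In the animal 2 were higher (Hist1h2aa and Hist4h4) and 6 lower (Hist1h1c, Hist1h2bc, Hist1h2bj, Hist1h4i, Hist2h4 and Hist3h2a), against 28% and 33.1%. Hist4h4 passed the filter only through animal MII oocytes, so the filter favoured its call. Medians over the 32 genes were -0.15 and -0.09, beside -0.08 and -0.09 over all tested genes. Many of the 32 are near 0 in both stages, where no 2-fold difference can be had on this scale. Hist1h4i and Hist3h2a were lower on both routes, which is 66.7% of the culture list and 33.3% of the animal list, beside 91.2% and 78.7% over all tested genes called lower at this step.

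At this step the direction for Hist1h2aa depended on the scaling. It was 0.73 higher at MII in culture and 1.40 higher in the animal, but these differences turned to -0.06 and -0.04 once each group was scaled to the same total, and after quantile normalization they were 0.57 and 0.75, both short of 2-fold. Hist1h2bc was lower by 0.92 in culture and by 1.08 in the animal, Hist2h4 by 0.91 and 2.63, and Hist1h1c by 0.60 and 1.49. Scaling to equal totals moves the median of all tested genes to -0.74 in the animal and -0.50 in culture, and the split of calls at MII in the animal from 3988 higher and 4715 lower to 2170 and 6499. In culture that split went from 3409 and 4070 to 2131 and 5619. The FPKM sums at MII were the largest of all groups, so a level at MII depends on the scaling more than elsewhere.

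The culture groups were set beside the animal groups at 3 stages. Reaggregated PGCLCs had no histone gene at least 2-fold above or below E12.5 PGCs, where 1.39% and 0.786% of all tested genes were above and below. Short of that threshold, 26 of the 32 lay below E12.5 PGCs and 6 above, where all tested genes split 7029 below and 6932 above. The median difference was -0.32 for the 32 and 0.00 for all tested genes. The filter favoured this direction, since 15 of the 32 were highest in E12.5 PGCs. Some of these, Hist1h2bm among them, passed it through that group only and had to be lower after reaggregation. Without the filter the median was -0.14 for the 68 genes and 0.00 for all genes. The largest differences among the 32 were Hist1h2ag at -0.93, Hist1h2ai at -0.91, named after its values were seen, Hist1h2bk at -0.89 and Hist1h3c at -0.82. Summed H3 was 9.92 FPKM after reaggregation and 17.1 FPKM in E12.5 PGCs, and summed H2A 11.3 and 20.5. The DNA replication genes, 25 genes of licensing, nucleotide supply and the fork, had a median of -0.24 here, and the other 4 gene lists were also below 0, with -0.11 for histone mRNA processing and decay, -0.11 for histone variants, -0.10 for chaperones and -0.02 for the poly(A) tail machinery.

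Secondary follicle oocytes of culture and animal also had no histone gene past 2-fold, with 1.74% of all tested genes higher in culture and 0.66% lower, and a median of 0.00 for the 32 genes and 0.00 for all. Most of the 32 were below 1 FPKM in both groups, where no 2-fold difference can be had on this scale. The absence of calls and the median thus say little of those genes. Hist1h1c came nearest, 0.98 higher in culture, and Hist2h4 was the largest the other way at -0.73. Hist1h2bc at 44.8 and 47.0 FPKM, Hist3h2ba at 12.6 and 13.3 FPKM and Hist1h2aa at 18.6 and 20.7 FPKM differed by 1.05-fold, 1.05-fold and 1.12-fold, each lower in culture.

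In MII oocytes 2 of the 32 genes were higher in culture, Hist1h1c by 1.87 and Hist3h2a by 1.30, and none was lower, against 12.4% and 9.45% of all tested genes. Hist2h4 was just short of the threshold at 0.98. Hist4h4, Hist1h2aa and Hist3h2ba were at -0.86, -0.82 and -0.75, of which Hist4h4 passed the filter only through animal MII oocytes. Medians were 0.00 for the 32 genes and 0.01 for all. Most of the 32 were below 1 FPKM in both MII groups, many of them listed at 0 in both. No 2-fold difference can be had there on this scale, so the counts and the median say little of those genes. Scaling to equal totals changed the split of all calls here from 1772 higher and 1346 lower to 2385 and 168, with a median of 0.23.

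Earlier on the culture route, 4 of the 32 genes were at least 2-fold higher in PGCLCs at day 6 than in ES cells and 1 was lower, against 9.63% and 12% of all tested genes. Higher were Hist1h2bc by 1.69, Hist1h4d by 1.36, Hist3h2ba by 1.33 and Hist1h2an by 1.04, the last named after its values were seen, and lower was Hist3h2a at -1.10. Hist1h2an passed the filter only through PGCLCs at day 6, so the filter favoured its call. After quantile normalization Hist1h2an at 0.99 and Hist3h2a at -0.92 were short of 2-fold. After reaggregation the same H2B genes were lower again, Hist3h2ba at -1.81 and Hist1h2bc at -1.45, while Hist1h3c was higher by 1.48, Hist1h2bj by 1.30 and Hist1h2ag by 1.00. These 3 higher and 2 lower of 32 compare with 5.15% and 5.04% of all tested genes, whose split went from 733 higher and 718 lower to 1326 and 532, with a median of 0.11, under equal totals. The 2 steps share the PGCLCs at day 6, so the turn of the H2B genes rests on 1 deposited value for each.

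The genes that make, process and destroy histone messages were described beside them. Slbp, which binds the stem-loop, stood at 37.9 FPKM in ES cells, 65.4 in PGCLCs at day 6, 64.1 in reaggregated PGCLCs, 187 in culture secondary follicle oocytes and 1405 in culture MII oocytes, and at 89.6, 169 and 2528 FPKM in the animal. Of the 27 genes for histone pre-mRNA processing and decay, 6 were higher and 10 lower in culture secondary follicle oocytes than in reaggregated PGCLCs, with a median of -0.92, and 3 higher and 10 lower in the animal, with a median of -0.73. Of all tested genes in culture, 25.2% were higher and 26.4% lower, beside 24.3% and 25.9% in the animal, which is the background of every gene list at this step, with a median of -0.09 on both routes. Lsm10, a subunit of the U7 particle that directs the cut at the stem-loop, was at 16.5 and 128 FPKM in reaggregated PGCLCs and culture secondary follicle oocytes and at 18.1 and 94.0 FPKM on the animal side. Zfp473, also part of that machinery, was at 7.28 and 41.7 FPKM in culture and 6.55 and 46.9 FPKM in the animal. Zcchc11, a uridyl transferase, was the largest the other way, at 15.2 and 0.332 FPKM in culture and at 16.5 and 0.502 FPKM in the animal.

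From secondary follicle to MII, 11 of the 27 were higher and 10 lower in culture, and 13 and 11 in the animal, beside culture backgrounds of 23.9% and 28.6% and animal backgrounds of 28% and 33.1% over all tested genes. Casp8ap2, a coactivator at histone loci, went from 3.00 to 163 FPKM in culture and from 3.14 to 340 FPKM in the animal. Upf1, a helicase of histone mRNA decay, went from 23.6 to 311 FPKM and from 27.9 to 1146 FPKM. Lsm10 was lower at MII, at 14.8 and 2.58 FPKM.

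Of the 25 DNA replication genes, 11 were lower and 2 higher in culture secondary follicle oocytes than in reaggregated PGCLCs, and 13 lower and 1 higher in the animal, with medians of -0.73 and -1.05. Rrm2, a subunit of ribonucleotide reductase, was at 64.6 and 8.86 FPKM in culture and 70.6 and 8.74 FPKM in the animal. Mcm3, of the replicative helicase, was at 98.1 and 19.9 FPKM in culture and 124 and 16.6 FPKM in the animal. Gins2 was the largest exception, at 7.98 and 109.8 FPKM in culture and 11.3 and 105 FPKM in the animal.

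Of 15 genes of the poly(A) tail machinery, 5 were higher and 5 lower from germ cell to secondary follicle oocyte on each route, close to the shares over all tested genes, and the 5 higher were Btg4, Cpeb1, Fip1l1, Pabpc1l and Pabpn1l on both. Btg4, an adaptor of the deadenylase complex, was at 0.159 and 269.8 FPKM in culture and 0.0189 and 237 FPKM in the animal. Pabpn1l, a poly(A)-binding protein of oocytes, was at 0.119 and 363 FPKM and at 0.0443 and 213 FPKM.

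Some replication-independent variants were far above the tailed messages of the 68 genes. Messages of the 68 genes that end at the stem-loop are not in these values, so total levels cannot be compared here. H1foo, the oocyte linker histone, was at 2036 FPKM in culture and 1693 FPKM in animal secondary follicle oocytes, beside 19.1 and 14.8 FPKM for the 6 H1 genes together. H3f3b, an H3.3 gene, was at 82.8 and 71.1 FPKM there, beside 1.53 and 0.991 FPKM for the 12 H3 genes together, and at 599.8 and 1090.0 FPKM in MII oocytes, beside 0.679 and 0.506 FPKM. H2afy, the gene of macroH2A1, was among the variants that were lower in oocytes of both routes. Of the 12 variants, H1f0 and H1foo were higher and 4 lower in culture secondary follicle oocytes than in reaggregated PGCLCs, and the same 2 were higher and 5 lower in the animal.

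Many histone genes resemble each other closely, which bears on all values above. For each gene the share of 50-base stretches of its GENCODE transcripts that occur in no other gene was computed. It was 97.7% for Hist1h2aa, 99.0% for Hist2h4, 91.5% for Hist1h1c, 77.9% for Hist3h2ba and 69.9% for Hist1h2bc. It was 53.0% for Hist1h3c, 40.6% for Hist1h2bj and 21.1% for Hist1h2ag, and 32 of the 68 genes were under 50%. The 7 genes listed at 0 in all groups had a median of 10.2% and a highest value of 36.5%. The 29 genes below 1 FPKM had a median of 50.7%, and the 27 that peaked between 1 and 10 FPKM had 53.0%. The read length and the treatment of reads that match several genes are also unknown here, and the part of shared sequence in the levels was not tested. Levels of genes with little sequence of their own, Hist1h2ag among them, are uncertain.

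**Figure D5:**
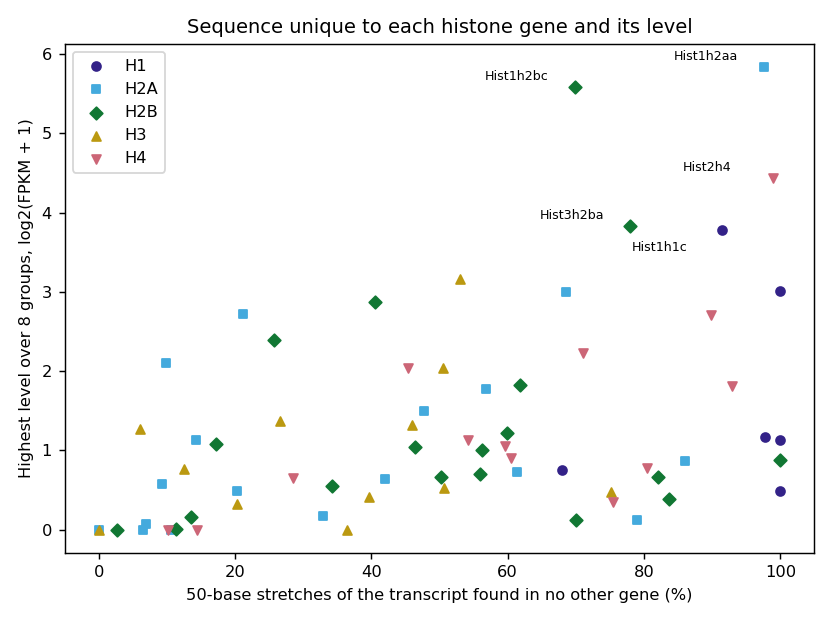
Each point is 1 of the 68 histone genes, with the share of its 50-base stretches found in no other gene on the x axis and its highest log2(FPKM + 1) over the 8 groups on the y axis. The 5 labelled genes that reached 10 FPKM lie at or above 69.9%, and the genes at 0 lie at or below 36.5%.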

How the data were processed

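RNA sequencing of 23 mouse samples in 8 groups was used, 3 samples per group and 2 for PGCLCs at day 6. Per the submitters' processing notes, the tools named were TopHat2, Bowtie2 (2.0.13), Cufflinks and Cuffdiff (2.2.1), with the mm10 genome. The authors deposited FPKM, 1 value per gene and group, in a table that was used as deposited; counts, depth, annotation, strand setting, read length and the treatment of multiply mapped reads are not given in the sources used here. Per the labels' protocols, poly(A)+ RNA was captured and directional libraries were made.

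The 68 genes were found by symbol. Differences were taken on log2(FPKM + 1) over genes with at least 1 FPKM in at least 1 group and called at 2-fold, with Python 3.11.15, numpy 2.4.6, pandas 2.3.3 and matplotlib 3.10.9; the code was tested on simulated data. No test was possible with 1 value per group. The symbol rule, the gene lists and the naming rule were chosen with earlier results of these data known. Named were histone genes that reached 10 FPKM, the 5 highest in each group, the 6 largest differences in each direction with at least 10 FPKM in the higher group, Hist1h1t, Hist1h2ba, Hist1h2aa, Hist4h4, Slbp and up to 4 genes per list. Alternatives were pseudocounts of 0.1 and 5, a stricter filter (5 FPKM) or none, quantile normalization, median centring and equal sums (all groups scaled to the same total). Stem-loops, hexamers and shared 50-base stretches were read from GENCODE M21 transcripts and promoters from RefSeq. Protein sequences were not used here.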

Additional observations from a re-analysis of the deposited data

How the results depend on the processing

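No paired analysis was possible because the table holds 1 value per gene and group, and leaving out each replicate was not run for the same reason. Of 126 alternative counts of called histone genes, 93 stayed within 1.5 times the main count and 33 did not; the cause was not tested. With 0.1 FPKM added, reaggregated against E12.5 cells had 9 lower; culture against animal had 6 higher in secondary follicle oocytes and 8 higher and 2 lower at MII; day 6 PGCLCs against ES cells had 13 higher; reaggregation had 9 higher and 6 lower; growth in culture had 18 lower; maturation had 1 higher and 11 lower in culture and 12 lower in the animal. With 5 FPKM added, culture against animal MII had 1 higher, day 6 PGCLCs and reaggregation had 0 in either direction, growth had 5 higher and 0 lower in culture and 2 lower in the animal, and maturation had 0 lower in culture and 1 higher and 2 lower in the animal. With a filter of 5 FPKM, growth had 4 lower on each route and animal maturation 1 higher. After quantile normalization, reaggregated against E12.5 cells had 1 lower, culture against animal 1 higher in secondary follicle oocytes and 1 lower at MII, and day 6 PGCLCs 0 lower. With equal sums, culture against animal secondary follicle oocytes had 1 higher, culture growth 15 lower, culture maturation 6 lower and animal maturation 0 higher, where Hist1h2aa turned to -0.038. For single genes, 338 of 405 alternative differences kept direction and call, 66 kept direction and lost the call, and 1 reversed. Hist1h2aa in culture, short of 2-fold, also turned from 0.73 to -0.06 with equal sums. Of 144 alternative sums of the histone genes and their types, 54 moved by over 1.5 times. The filter of 5 FPKM left 11 histone genes and turned their median at growth to 1.18 in culture and 0.91 in the animal.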

Other observations

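The histone chaperones, which carry histones to and from DNA, were described after the other gene lists. Among 21 chaperone genes, 8 were above reaggregated PGCLCs by at least 2-fold in culture secondary follicle oocytes and 9 below, and 6 higher and 10 lower in animal ones than in E12.5 PGCs, with medians of -0.68 and -0.80. Of all tested genes in culture, 25.2% were higher and 26.4% lower, and 24.3% and 25.9% in the animal. Npm2, the oocyte nucleoplasmin, stood at 0.247 FPKM in reaggregated PGCLCs, 1698 in culture secondary follicle oocytes and 283 in culture MII oocytes, and at 0.334, 1847 and 19.0 FPKM in the animal. Chaf1a, the large subunit of the assembly factor CAF-1 that deposits new H3 and H4 at the fork, was at 27.9, 165 and 14.1 FPKM in culture and 34.5, 153 and 3.03 FPKM in the animal. Its level was thus high in the growing oocytes, where the tailed messages of the 12 H3 genes summed to 1.53 and 0.991 FPKM. From secondary follicle to MII, the counts of higher and lower chaperone genes were 10 and 4 in culture and 12 and 4 in the animal, beside culture backgrounds of 23.9% and 28.6% and animal backgrounds of 28% and 33.1% over all tested genes. Scaling to equal totals lowers the number of genes called higher at this step over the whole table from 3409 to 2131 in culture and from 3988 to 2170 in the animal, and the chaperone counts were not recomputed under it.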
